A study of Coprinopsis cinerea AmutBmut pab1-1 with 201 samples.

Results

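The intron-rich genes of the mushroom Coprinopsis cinerea are described here, defined as counted genes whose annotated transcript has 15 or more exons. They were chosen from the deposited CopciAB V2 gene annotation by exon number alone, with no use of expression, and number 683 of the 13617 counted genes. They are set beside the 11851 counted genes of 2 to 14 exons, and where it helps beside the 1083 genes of 1 exon.

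An intron is a stretch of the primary transcript that the spliceosome removes, joining the exons on either side into the messenger RNA. Basidiomycete fungi such as Coprinopsis carry many short introns per gene and are thought to recognise them mostly as units across the intron, whereas animals with long introns mostly recognise the short exon between them. Each intron adds a splicing step before a transcript is complete, and splicing is coupled to transcription, to polyadenylation and to export from the nucleus.

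The study profiled polyadenylated RNA of strain AmutBmut pab1-1, which carries mutations in both mating type factors and fruits without a partner, in 67 groups of 3 libraries. Libraries were made with the QuantSeq 3′ kit, which primes at the poly(A) tail and yields reads near the transcript end. A count therefore stands for transcript ends rather than for length, and counts scaled to a common library size (CPM) were compared between genes without a length correction, which makes them depend on how well each 3′ end is annotated. All groups share the strain, and the deposited gene identifiers carry no names or products, so defining markers of a stage or cell type could not be checked and no role can be given for a single gene.

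The groups are as follows. Oidia, the asexual spores, were sampled at 0 h and after 18 h of germination, and basidiospores, the sexual spores, at 0, 4, 8 and 12 h. Vegetative mycelium was grown in the dark for 12 to 132 h, and at 156 h the aerial mycelium was separated from the mycelium attached to the medium. Both compartments were then taken after 1 and 2 h of light and 2, 6, 12, 18 and 24 h into the darkness that followed 2 h of light. Hyphal knots, the first compact aggregates of a fruiting body, were taken at 24 h, and primordia, the young fruiting bodies, after 6, 12, 18 and 24 h of a light and dark cycle. Against dark mycelium of 132 h stood 6-day cultures heated to 47 °C for 2 h, cultures kept at -20 °C for 30 min, cultures sealed from inoculation at 28 °C, and sclerotia (dense resting bodies) of 4 weeks. By their labels the sclerotia may hold some mycelium. Drought, 4 °C for 4 h and cutting followed by 3 h had dark mycelium of 84 h as their control. Colonies moved from YMG medium to water agar for 2, 4, 8, 16 and 24 h, and mycelium just meeting the fungus Trichoderma, had dark mycelium of 60 h, and mycelium grown together with Trichoderma for 60 h had that of 108 h. A common liquid control served 1 mM hydrogen peroxide, acidic and alkaline medium and 1% congo red, each for 3 h, and 10% sorbitol for 2 h. Another control served 200 mM calcium for 24 h, 2 mM copper sulfate for 6 h and 0.5 µg/ml voriconazole, an antifungal, for 48 h. Cobalt chloride (2 mM) was given to cultures 7 days old that had 2 h of light and then 22 h of darkness, and it had its own control, as did 24 h in hypoxia bags. A last series of 6 groups on 1% water agar ran from 30 h before hyphal knots to 7.5 h after. Nothing states that replicates came from separate cultures, so the spread between libraries may be technical.

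The libraries held between 213736 and 26101402 counts, the median library 9984538. The 5 shallowest were the 3 of the culture overgrown by Trichoderma, replicate 1 of attached mycelium 12 h after light and replicate 1 of cold. Libraries correlated with the rest of their group at a median r of 0.968 and a lowest r of 0.682, while 31 libraries were closer to another group than to their own. Of the 51 libraries in the main comparisons 5 did so: replicates 1 and 2 of dark mycelium at 132 h, replicates 1 and 2 of aerial mycelium after 1 h of light, and replicate 2 of attached mycelium after 1 h of light. Without replicate 1 or 2 of dark mycelium at 132 h the number of called intron-rich genes was 107 or 109 in place of 106 for age in the dark, 342 or 345 in place of 346 for heat shock, and 260 or 255 in place of 262 for sclerotia. Without replicate 1 or 2 of aerial mycelium after 1 h of light it was 82 or 74 in place of 88, and without replicate 2 of attached mycelium 104 in place of 114.

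The gene models of the intron-rich genes were long chains of short exons separated by introns of nearly constant length. Among them 483 had 15 to 19 exons, 146 had 20 to 24, and 54 had 25 or more, of which 25 had 30 or more. Although they made up 5.02% of the genes, they held 11978 of the 65373 introns, or 18.3%. Their median transcript spanned 3731 bp with 17 exons, 2741 bp of exonic sequence and a protein of 819 residues. The median gene of 2 to 14 exons spanned 1728 bp with 5 exons, 1432 bp of exonic sequence and 373 residues. Part of the higher exon number thus came with greater length, but the exons were also shorter, with a median of 107 bp per intron-rich gene against 211 bp in the genes of 2 to 14 exons. There were 6.39 introns per kb of exonic sequence in the median intron-rich gene, against 2.80.

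Intron length hardly differed. The median intron was 55 bp long in the intron-rich genes and 57 bp in the others, and 95.5% against 91.6% of all introns were 40 to 80 bp. Very short exons were common: 1697 of the 11295 inner exons of the intron-rich genes, or 15.0%, were 30 bp or shorter, against 6.79% in genes of 2 to 14 exons. At least 1 such exon was annotated in 507 intron-rich genes (74.2%) and in 16.8% of the others, which also have fewer exons that could be that short. The share of inner exons whose length is a multiple of 3, so that leaving one out would keep the reading frame, was 34.6% against 35.4%. Isoforms, which were annotated but not counted, existed for 47 intron-rich genes (6.88%) and 7.93% of the others. Of the 49 isoforms of intron-rich genes 12 had fewer exons than the counted model, 13 the same number and 24 more.

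The end of the gene, where the reads lie, was similar in both classes. A 3′ UTR was annotated for 649 intron-rich genes (95%) and 90.4% of the others, with median lengths of 133 and 128 bp, and the median last exon had 297 and 380 bp. Overlap with a gene on the other strand was annotated for 226 intron-rich genes (33.1%) and for 25.7% of the others. The strand setting of the counting is not given in the sources used here, so reads of such partners cannot be told apart. Counts that were not whole in 50% or more of the libraries, which mark reads shared with other genes, occurred in 52 intron-rich genes (7.61%) and 10.8% of the others. On the 13 scaffolds with 100 or more genes the share of intron-rich genes ran from 2.32% on scaffold 9 to 6.27% on scaffold 13.

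The 5 genes with the most exons were widely expressed, and none was low in every group. CopciAB_357231 on scaffold 1 (2087695 to 2098068, + strand) had 60 exons and a protein of 2284 residues. Its highest group was resting basidiospores, with 440, 369 and 405 CPM, and its lowest was dark mycelium at 12 h, with 37.5, 41.8 and 58.6 CPM, but 53.2% of its values were not whole and it overlaps a gene on the other strand. CopciAB_354497, with 45 exons on the same scaffold (3446517 to 3455181, + strand), also peaked in resting basidiospores, at 478, 455 and 425 CPM against a median of 19.7 CPM over all groups. It too overlaps a gene on the other strand, and the next group was basidiospores at 4 h, with a mean of 241 CPM. CopciAB_494731, with 44 exons (scaffold 1, 2704482 to 2716433, + strand), stayed between group means of 22.5 and 114 CPM, with 63.7% of its values not whole and an overlapping gene on the other strand.

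The 2 genes of 39 exons differed in build and in pattern. CopciAB_354595 on scaffold 1 (3496001 to 3504366, - strand) has a median exon of 133 bp, and CopciAB_444335 on scaffold 11 (481085 to 486187, - strand) one of 47 bp. CopciAB_354595 was lowest in resting basidiospores, at 2.06, 0.908 and 3.47 CPM, and highest in germinated oidia, at 70.3, 90.5 and 65.2 CPM. CopciAB_444335 was highest in attached mycelium 24 h after light, at 125, 155 and 51.7 CPM, and lowest after cutting, at 8.06, 7.04 and 8.35 CPM. In both genes the 3 libraries of the highest group lay above the 3 of the lowest group. These extremes were picked from the same values and carry no test.

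**Figure D1:**
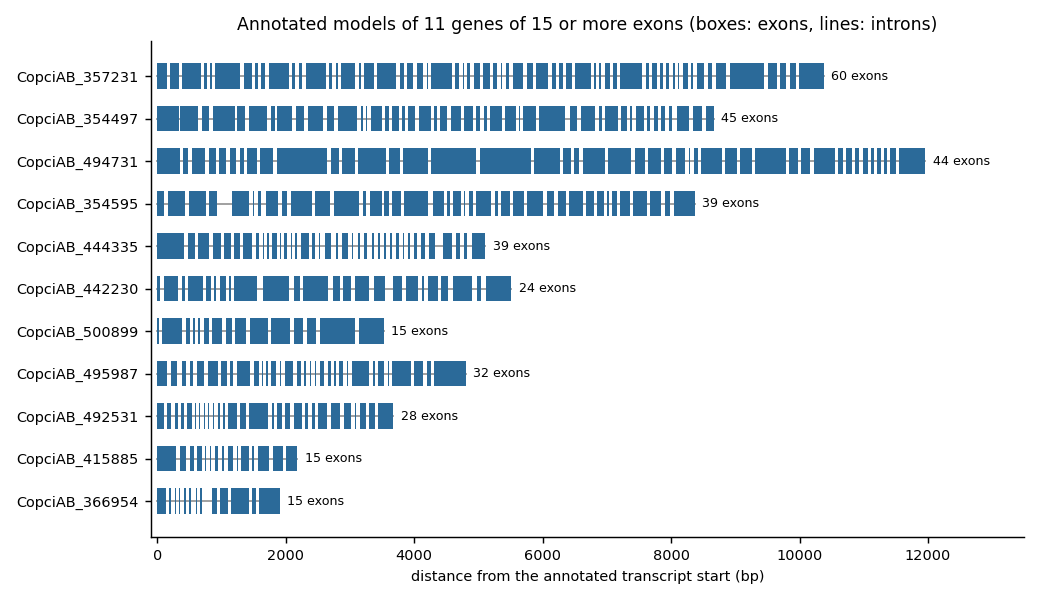
Annotated gene models of 11 of the intron-rich genes named in the text, drawn to scale from the transcript start (horizontal axis, bp), with exons as boxes and introns as lines. The top 5 have the most exons, from 39 to 60, and nearly all introns are short compared with the gene.

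The intron-rich genes were expressed at a higher median level than genes of 2 to 14 exons, but no higher than could be seen from 6 exons upward. Their median level, taken as the mean over 67 groups of log2 CPM, was 4.04 against 3.44, a difference of 0.60. Computed within each replicate number the difference was 0.61, 0.62 and 0.58. By class of exon number the median level was -0.65 for 1 exon, 3.00 for 2 to 5, 3.99 for 6 to 9 and 3.88 for 10 to 14. The difference to the genes of 2 to 14 exons therefore lay mostly in the genes of few exons. At the threshold itself the 207 genes of 14 exons had a median of 4.02 and the 167 genes of 15 exons one of 4.09. Within the intron-rich genes the median was 4.04 for 15 to 19 exons, 3.94 for 20 to 24 and 4.44 for 25 or more. Among genes with a mean of 1 CPM or more the difference to genes of 2 to 14 exons fell to 0.17, with medians of 4.21 and 4.04. Among genes with an annotated 3′ UTR, a set chosen after seeing the data, the medians were 4.18 and 3.77.

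Few intron-rich genes were silent, and not many were strong. Only 1 of the 683, or 0.146%, failed to reach a group mean of 1 CPM in any group, against 6.02% of genes of 2 to 14 exons and 2.63% of those of 10 to 14. Among genes of 2 to 14 exons with an annotated 3′ UTR the share was 1.56%. In all 67 groups 474 (69.4%) reached 1 CPM, against 54.9% of genes of 2 to 14 exons, 63.6% of those of 10 to 14 and 65.8% of those of 6 to 9. A mean of 100 CPM or more was reached by 62 intron-rich genes (9.08%) and by 12.0% of genes of 2 to 14 exons. These are counts over genes, given with no test.

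The median SD over the 67 group means was 0.78 on the log2 scale in both classes. The median tau, an index that runs from 0 for an even level to 1 for expression in 1 group, was 0.733 against 0.774. Genes were also compared within strata of their mean level. Between 2 and 4 on the log2 CPM scale the median SD was 0.83 in both, between 4 and 6 it was 0.64 in the intron-rich genes and 0.67 in the others, and at 6 or more 0.72 and 0.74. Between 0 and 2 it was 1.02 against 1.06. Below 0 the 52 intron-rich genes had a median SD of 0.92 and were called in a median of 4 comparisons, against 0.65 and 1 in the 2362 others. These medians of calls take genes that failed the filter on low counts everywhere as not called, so they also reflect that filter. Over all levels 673 of 683 intron-rich genes and 10830 of 11851 others were tested in some comparison.

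The difference in median level between intron-rich genes and genes of 2 to 14 exons was above 0 in every library, from 0.21 to 1.07 with a median of 0.61 on the log2 scale. It differed between groups by more than between replicates, with an SD of 0.146 over group means against a pooled SD of 0.062 within groups. The widest differences belonged to oidia after 18 h, at 0.86, 1.07 and 0.85, and to the primordia. In primordia at 18 h it was 0.91, 0.93 and 0.94, at 12 h 0.78, 0.85 and 0.99, at 24 h 0.92, 0.82 and 0.86, and at 6 h 0.87, 0.85 and 0.87. All 12 libraries of primordia thus lay above the median library. In these 4 groups the median of the intron-rich genes was 4.30 to 4.37, above that of genes of 10 to 14 exons, at 3.97 to 4.04. In oidia after 18 h the intron-rich median was 4.22, as in attached mycelium 24 h after light. Genes of 2 to 14 exons had 3.23 in those oidia and 3.43 to 3.48 in the primordia.

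At the other end stood stressed and liquid cultures. In alkaline medium the difference was 0.21, 0.31 and 0.30, in congo red 0.31, 0.38 and 0.21, in their liquid control 0.23, 0.34 and 0.35, and after heat shock 0.30, 0.27 and 0.40. None of these 12 libraries overlapped those of the primordia. Both sets were picked as the ends of the same ranking, so this separation largely follows from the choice and carries no test. The liquid control was as low as those treatments. In alkaline medium and congo red the intron-rich genes, at 3.66 and 3.65, were below genes of 10 to 14 exons, at 3.77 and 3.80. After heat shock the order was the reverse, with 3.69 against 3.50. In all, intron-rich genes took between 1.22% and 3.74% of a library's counts, with a median of 2.99%. In these bulk samples fewer cells of a type and less RNA per cell cannot be told apart.

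**Figure D2:**
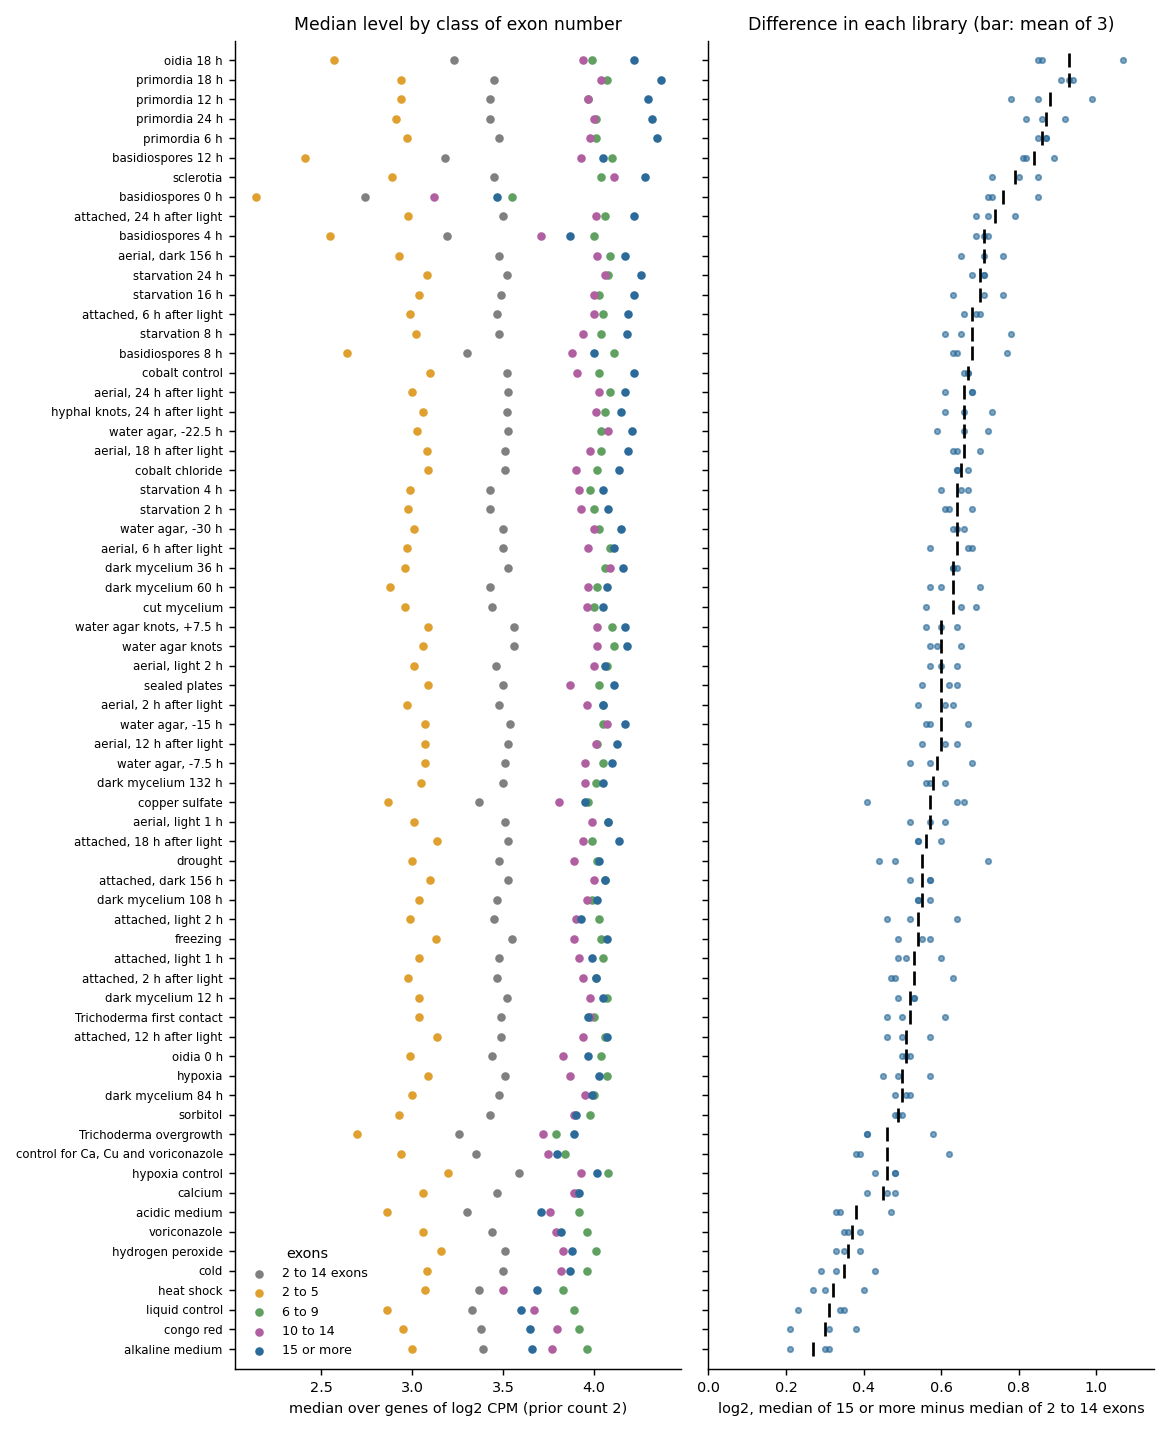
Left, median over genes of log2 CPM in each of the 67 groups by class of exon number; right, the median of genes of 15 or more exons minus that of genes of 2 to 14 exons in each library, with a bar at the mean of 3, groups sorted by that mean. Every library lies above 0, the primordia and germinated oidia are at the top, and on the left the classes of 6 to 9, 10 to 14 and 15 or more exons lie close together.

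The highest group of each gene was also tallied by stage. The largest number of intron-rich genes, 161 or 23.6%, peaked in resting spores, about as many as among genes of 2 to 14 exons, with 24.3%. Primordia held the peak of 82 intron-rich genes (12.0%) against 6.28% of the others, and sclerotia that of 31 (4.54%) against 3.09%. Heat shock held 37 (5.42%) against 9.40%, and germinating spores 99 (14.5%) against 13.0%. These shares are a description over genes, many of which move together.

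Of the 683 intron-rich genes 31 reached 1 CPM in 10 or fewer groups. The share among other genes was not counted, so the 31 cannot be read as few or many. Of the genes of 2 to 14 exons 6.02% reached 1 CPM in no group at all. The highest tau among intron-rich genes with a peak of 10 CPM or more belonged to CopciAB_503037 and CopciAB_503728, with tau of 1.000 and 0.999. Both peaked in the culture overgrown by Trichoderma, at 4.35, 45.9 and 57.7 CPM and at 17.4, 3.82 and 11.2 CPM. Their counts were not whole in 95.6% and 80% of libraries with a count, and neither has an annotated UTR. The libraries of that group were the shallowest of the series, and the part of reads from another source was not tested. The next was CopciAB_469845, described with the oidia.

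The steadiest intron-rich genes with a mean of 10 CPM or more were CopciAB_499723 (17 exons, SD 0.25 log2), CopciAB_432113 (15 exons, SD 0.27, 58.7% of values not whole) and CopciAB_429433 (18 exons, SD 0.30, overlapping a gene on the other strand). CopciAB_499723 ranged over the groups from 10.2 CPM after heat shock to 29.2 CPM in basidiospores at 8 h and was called in 0 of the 46 comparisons described next. CopciAB_432113 and CopciAB_429433 were each called in 1.

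Responses were tested in 46 comparisons with edgeR's quasi-likelihood test on all genes, and a call needed both a change of at least 2-fold and p under 0.05 after Benjamini-Hochberg adjustment. Between 608 and 664 intron-rich genes passed the filter on low counts in a given comparison, 580 in all of them, and 10 in none. The intron-rich genes responded about as often as other genes. The share called among them, less that among genes of 2 to 14 exons, ranged from -4.9 to 4.5 percentage points, with a median of -0.633, and it was above 0 in 10 comparisons and below 0 in 36. The comparisons share control libraries and are not independent. A tested intron-rich gene was called in a median of 7 comparisons, with quartiles of 4 and 12, as was a gene of 2 to 14 exons. In none of the comparisons were 15 of 673 called (2.23%), against 2.26% of the others, and in 20 or more 35 (5.20%), against 5.16%.

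**Figure D3:**
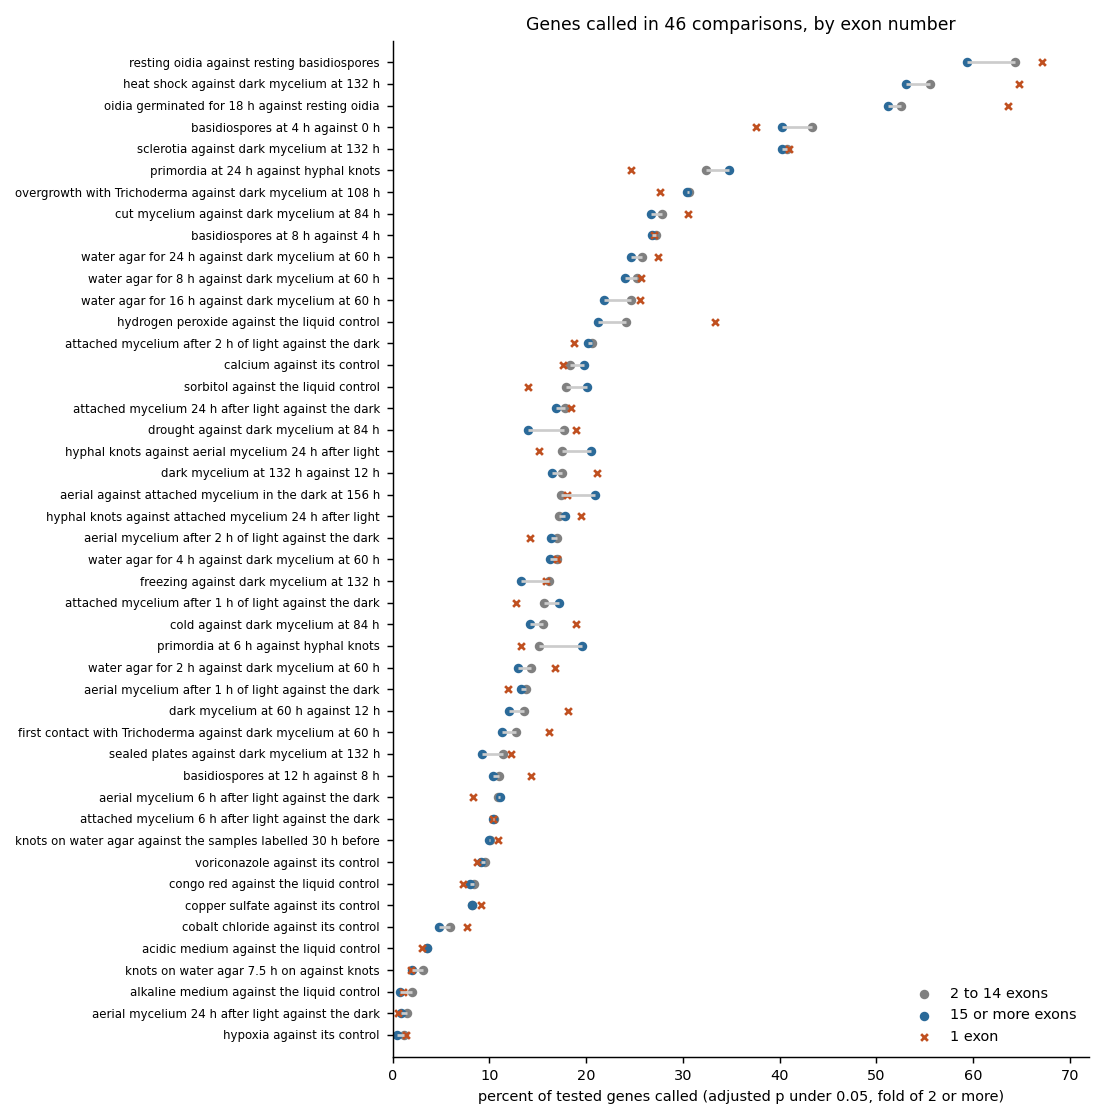
Percent of tested genes called in each of 46 comparisons (horizontal axis) for genes of 15 or more exons, of 2 to 14 exons and of 1 exon, sorted by the share among genes of 2 to 14 exons. The shares of the first 2 classes lie within 4.9 percentage points of each other in all comparisons, from under 2% in hypoxia to about 60% between resting spores.

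Germination of the asexual spores changed 334 of 652 tested intron-rich genes, or 51.2%, where 53.0% of all tested genes were called. There 199 rose, or 30.5%, against 26.7% of all genes, and 135 fell, or 20.7%, against 26.3%. The median log2 fold change was 0.25, against 0.03 over all tested genes. Genes of 10 to 14 exons were alike, with 29.4% higher, 20.4% lower and a median of 0.2. RLE scaling moved all genes by -0.16, to medians of 0.09 in the intron-rich genes and -0.12 over all tested genes. With it 182 intron-rich genes rose and 173 fell. By edgeR's estimated fold the largest rise was that of CopciAB_366954 (scaffold 3, 3566859 to 3568763, - strand), a gene of 15 exons with a median exon of 41 bp. It had 2.49, 2.70 and 3.88 CPM at 18 h and no count in the 3 libraries of resting oidia. That makes it at least 21.0-fold higher at a floor of 3 counts over the group (adjusted p = 2.74e-06). Its level was low throughout, with 10.4 CPM in its highest group. Without control counts its rank is uncertain: CopciAB_456054 went from 6.86, 3.28 and 3.20 CPM in resting oidia to 160, 164 and 131 at 18 h.

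The largest fall in germinating oidia was that of CopciAB_469845 (scaffold 10, 1828577 to 1831954, + strand), of 15 exons. Resting oidia had 300, 472 and 436 CPM and oidia at 18 h 2.14, 1.01 and 1.27. It fell by 7.90 ± 0.39 on the log2 scale (SE, adjusted p = 1.19e-12 by edgeR), and in every other group its mean was 4.2 CPM or less. It overlaps a gene on the other strand, so part of these counts may belong to that partner.

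Basidiospores at 4 h against 0 h gave 262 called intron-rich genes of 652, or 40.2%, against a background of 42.8%. There 154 rose (23.6%, background 25.9%) and 108 fell (16.6%, background 16.9%). This split depended on scaling: RLE size factors moved all genes by -0.22 on the log2 scale, which gave 133 rises and 143 falls, and DESeq2 gave 134 and 141. It turned as well on leaving out any 1 library of resting basidiospores, with 121 rises and 135 falls without replicate 1, 119 and 142 without replicate 2, and 137 and 144 without replicate 3. The median of the intron-rich genes was 0.14 as was that of all tested genes, and with RLE -0.07 and -0.08. CopciAB_499745 (18 exons, scaffold 4, 2588144 to 2591138, - strand, overlapping a gene on the other strand) went from 2.06, 2.27 and 2.08 CPM to 116, 125 and 110. The groups do not overlap, and the log2 fold change was 5.89 ± 0.24 (SE, adjusted p = 3.83e-13). CopciAB_473239 (15 exons, scaffold 10, 201409 to 205806, + strand, likewise overlapping) fell from 776, 821 and 455 CPM to 47.3, 36.2 and 23.7, with a log2 fold change of -4.14 ± 0.36 (adjusted p = 5.57e-09).

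Later steps of germination involved fewer genes. From 4 to 8 h 26.8% of tested intron-rich genes were called against 27.2% of all genes, and from 8 to 12 h 10.4% against 11.1%. Resting oidia against resting basidiospores gave the highest share of all, 59.4%, which was the furthest below genes of 2 to 14 exons, with 64.3%, and below the background of 64.2%.

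In dark mycelium 106 of 643 tested intron-rich genes (16.5%, background 17.6%) differed between 132 and 12 h. Of these 74 were higher at 132 h (11.5%, background 10.6%) and 32 lower (4.98%, background 7.0%). At 60 h the share was 12.0%, against 13.7% of all genes. CopciAB_492531 (28 exons, scaffold 13, 517558 to 521228, - strand, overlapping a gene on the other strand) rose from 6.32, 4.98 and 3.31 CPM to 131, 63.8 and 205. The libraries at 132 h were spread widely but all lay above those at 12 h (log2 fold change 4.83 ± 0.55, adjusted p = 1.19e-05). CopciAB_465489 (15 exons) fell from 14, 13.6 and 19.1 to 4.6, 1.95 and 1.61 CPM (-2.45 ± 0.32, adjusted p = 3.65e-06).

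Heat shock gave 346 called intron-rich genes of 652, or 53.1%, against a background of 55.9%. The direction leaned downward: 131 rose, or 20.1%, where 27.5% of all tested genes rose, and 215 fell, or 33.0%, where 28.4% did. Genes of 10 to 14 exons leaned alike, with 21.4% higher, 32.8% lower and a median log2 fold change of -0.33. That median was -0.28 in intron-rich genes, -0.08 in genes of 2 to 14 exons and 1.02 in genes of 1 exon, of which 48.4% rose. Under RLE scaling 143 intron-rich genes rose and 204 fell, and their median was -0.18, against 0.05 over all tested genes.

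The largest rise with heat was that of CopciAB_500899, a gene of 15 exons and 834 residues on scaffold 6 (2312898 to 2316424, + strand) that overlaps a gene on the other strand. It went from 15.6, 19.3 and 17.9 CPM to 3370, 4830 and 3930, a log2 fold change of 7.90 ± 0.34 (adjusted p = 2.57e-13). No other group came near, since the next highest mean was 299 CPM in resting basidiospores. CopciAB_417392 (22 exons, scaffold 12, 1023869 to 1027105, - strand) went the other way, from 39.2, 39.7 and 56.1 CPM to 0.132, 0.341 and 0.381 (-7.21 ± 0.46, adjusted p = 3.07e-11). It overlaps a gene on its own strand, and its highest group was water agar for 8 h, with 278, 249 and 252 CPM.

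Sclerotia against the same dark mycelium gave 262 called intron-rich genes of 652, or 40.2%, against a background of 40.8%. Here 144 were higher, or 22.1% against 19.3% of all genes, and 118 lower, or 18.1% against 21.5%. The median log2 fold change was 0.17, against -0.08 in genes of 2 to 14 exons. Genes of 10 to 14 exons leaned alike, with 21.4% higher, 16.5% lower and a median of 0.13. CopciAB_369995 (19 exons, scaffold 7, 1913120 to 1916231, - strand, overlapping a gene on its own strand) had 10.4, 12.9 and 7.11 CPM in sclerotia and 0.164, 0.278 and 0.446 in the control (5.08 ± 0.54, adjusted p = 2.17e-07). It was above 20 CPM in primordia at 12 h, with 20.8, 36.0 and 23.6 CPM, and in resting basidiospores, with 25.8, 31.9 and 22.5 CPM. CopciAB_446928 (15 exons, scaffold 10, 1740533 to 1742748, + strand) fell from 292, 156 and 592 CPM to 6.86, 1.68 and 3.69 (-6.39 ± 0.58, adjusted p = 9.32e-07), with wide spread in the control but no overlap.

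The other treatments of mycelium called fewer genes, at shares close to the background. Freezing gave 13.3% of tested intron-rich genes against 16.0% of all genes, and sealed plates 9.20% against 11.3%. Drought gave 14% against 17.5%, cold 14.2% against 15.6%, and cutting 26.7% against 27.9%. First contact with Trichoderma gave 11.3% against 12.9% and overgrowth 30.4% against 30.4%. Cobalt chloride gave 4.79% against 5.92%, hypoxia 0.485% against 1.12%, calcium 19.8% against 18.4%, copper sulfate 8.19% against 8.26%, and voriconazole 9.13% against 9.52%.

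In the liquid series hydrogen peroxide gave 21.2% of tested intron-rich genes against 24.4% of all genes, acidic medium 3.59% against 3.53%, alkaline medium 0.780% against 1.9%, and congo red 7.96% against 8.32%. Sorbitol gave 20.1% against 17.8%, with 96 higher (15.0%, background 10.7%) and 33 lower (5.15%, background 7.07%), and a median log2 fold change of 0.23 against 0.04 in genes of 2 to 14 exons. Of the called intron-rich genes 74.4% were higher in sorbitol, against 59.2% of the called genes of 2 to 14 exons. Among genes of 10 to 14 exons 69.1% of those called were higher, and their median log2 fold change was 0.15. All 5 treatments share 1 control.

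Transfer to water agar changed 13.0%, 16.3%, 24.0% and 21.8% of tested intron-rich genes after 2, 4, 8 and 16 h, against 14.4%, 17.0%, 25.3% and 24.5% of all genes. After 24 h 159 of 646 were called, or 24.6% against 25.8%, of which 100 rose (15.5%, background 14.9%) and 59 fell (9.13%, background 10.9%). CopciAB_368921 (17 exons, scaffold 8, 1473059 to 1475497, - strand, overlapping a gene on the other strand) had no count in the 3 control libraries and 53.3, 42.6 and 42.7 CPM after 24 h. That is at least 557-fold higher at a floor of 3 counts over the control group (adjusted p = 2.68e-10). CopciAB_476878 (16 exons, overlapping a gene on the other strand) fell from 1.25, 1.03 and 1.54 CPM to 0.156, 0 and 0 (-4.56 ± 1.22, adjusted p = 0.00382), a call that rests on 46 counts in the control libraries and 1 in the others.

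Aerial and attached mycelium in the dark differed in 139 of 664 tested intron-rich genes, or 20.9%, where the background was 17.7%. There 53 were higher in aerial mycelium (7.98%, background 7.42%) and 86 lower (13.0%, background 10.2%). The lowest count on leaving out a library was 115, without replicate 1 of aerial mycelium. CopciAB_492531, which rose with age in the dark, had 0.550, 1.49 and 1.01 CPM in aerial and 342, 272 and 243 CPM in attached mycelium (-8.13 ± 1.37, adjusted p = 9.47e-06). CopciAB_381690 (15 exons, scaffold 5) was higher in aerial mycelium, at 36.4, 31.1 and 14.6 CPM against 0.728, 1.28 and 1.07 (4.68 ± 0.59, adjusted p = 2.25e-08), but 85.1% of its values were not whole.

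After 1 h of light 88 of 664 intron-rich genes were called in aerial mycelium, or 13.3% against a background of 13.6%, with 36 higher (5.42%, background 6.85%) and 52 lower (7.83%, background 6.77%). Without replicate 1 of the dark aerial mycelium the count was 67. In attached mycelium 114 were called, or 17.2% against 15.6%, with 37 higher (5.57%, background 6.06%) and 77 lower (11.6%, background 9.49%). The same 2 genes led both comparisons. These share no library, but they come from the same fit and same-numbered dark libraries deviated together, so they are not independent.

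CopciAB_442230 (24 exons, scaffold 9, 109042 to 114550, - strand) had the largest rise in light. In aerial mycelium it went from 1.10, 0.548 and 0.310 CPM to 191, 83.1 and 161 (7.84 ± 0.75, adjusted p = 6.69e-10), and in attached mycelium from 6.01, 9.03 and 8.02 to 473, 425 and 623 (6.02 ± 0.65, adjusted p = 3.64e-09). It was called in 34 of 46 comparisons, the most of any intron-rich gene. It had no count in resting basidiospores and peaked under drought at 1010, 785 and 864 CPM. It overlaps genes on both strands.

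CopciAB_499145 (17 exons, scaffold 12, 116740 to 119906, + strand) had the largest fall in both. It went from 150, 71.9 and 40.9 CPM to 2.89, 5.60 and 4.13 in aerial mycelium (-4.36 ± 0.90, adjusted p = 0.000408), and from 829, 645 and 199 to 5.48, 3.15 and 10.0 in attached mycelium (-6.53 ± 0.97, adjusted p = 2.68e-06). Dark libraries were spread widely, but no lit library reached the lowest of them.

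Whether the response to 1 h of light differed between compartments was tested as an interaction, which called 22 of 664 intron-rich genes, or 3.31% against a background of 2.99%. In 15 the change was more positive in aerial mycelium (2.26%, background 2.4%) and in 7 in attached mycelium (1.05%, background 0.584%). The same 22 were called with a replicate block. The count rested on single libraries: it was 13 or 12 without replicate 1 or 2 of dark aerial mycelium, 9 without replicate 1 of dark attached mycelium, 13 or 11 without replicate 2 or 3 of lit aerial mycelium, and 14 without replicate 1 of lit attached mycelium. CopciAB_469977, chosen after its values were seen, went from 6.23, 3.52 and 2.64 to 1.98, 2.16 and 1.49 CPM in aerial mycelium and from 3.19, 2.88 and 2.05 to 7.74, 9.36 and 8.79 in attached mycelium. The compartments moved apart without overlap, with a difference of -2.74 ± 0.46 on the log2 scale (adjusted p = 0.000144, with the block 0.000141). CopciAB_511910 (24 exons), also chosen after its values were seen, fell in both but further in attached mycelium. It went from 60.3, 48.1 and 52.1 to 16.1, 21.4 and 14.8 CPM in aerial mycelium and from 62.3, 51.8 and 50.2 to 4.01, 1.98 and 5.49 in attached mycelium (2.30 ± 0.53, adjusted p = 0.0063, with the block 0.00748). Both stayed called on leaving out any 1 of the 12 libraries.

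At 2 h of light 16.4% of tested intron-rich genes were called in aerial and 20.2% in attached mycelium, against 16.8% and 20.4% of all genes. At 6 h after light the shares were 11.1% and 10.4% against 10.7% and 10.5%. At 24 h aerial mycelium had 0.904% against 1.36% and attached mycelium 16.9% against 17.8%.

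Hyphal knots and primordia after light had shares of called intron-rich genes near or a few percentage points above the background. Hyphal knots against attached mycelium gave 118 of 664, or 17.8% against a background of 17.4%, with 58 higher (8.73%, background 9.03%) and 60 lower (9.04%, background 8.33%). Against aerial mycelium hyphal knots gave 20.5% against 17.5%, with 87 higher (13.1%, background 9.36%) and 49 lower (7.38%, background 8.18%). Primordia at 6 h against hyphal knots gave 130, or 19.6% against 15.3%, the furthest above genes of 2 to 14 exons, which had 15.1%, with 79 higher (11.9%, background 7.76%) and 51 lower (7.68%, background 7.5%). Primordia at 24 h gave 231, or 34.8% against 32.1%, with 107 higher (16.1%, background 14.8%) and 124 lower (18.7%, background 17.3%). Leaving out replicate 3 of the hyphal knots gave 93 in place of 118 and 193 in place of 231. On water agar the knots against the group labelled 30 h before gave 9.95% against 10.1%, and 7.5 h later 2.02% against 3.02%.

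CopciAB_368921, which rose on water agar, had the largest fall between attached mycelium and hyphal knots, from 108, 115 and 66.9 CPM to 0.806, 0.750 and 0.364 (-7.23 ± 0.71, adjusted p = 8.44e-11). CopciAB_499061 (20 exons, scaffold 11) had no count in attached mycelium and 1.69, 2.25 and 1.18 CPM in knots, at least 19.1-fold higher at a floor of 3 counts over the group (adjusted p = 0.00596). It peaked in aerial mycelium after 1 h of light, at 176, 182 and 98.0 CPM.

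From knots to primordia at 24 h CopciAB_501445 (16 exons, median exon 319 bp, scaffold 1, overlapping a gene on the other strand) rose from 1.85, 2.92 and 1.64 CPM to 29.1, 33.5 and 29.7 (3.89 ± 0.50, adjusted p = 1.62e-08). CopciAB_446928, which was also lower in sclerotia, fell from 173, 608 and 334 to 0.512, 2.16 and 0.315 CPM (-8.54 ± 1.10, adjusted p = 3.38e-08). It was highest with voriconazole, at 2600, 2410 and 2270 CPM, and was called in 24 of the 41 comparisons in which it was tested.

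The 5 intron-rich genes with the highest mean level varied more than the median intron-rich gene, with SDs of 1.07 to 2.49 against 0.78 on the log2 scale. CopciAB_415885 (15 exons, 393 residues, scaffold 4, 1256059 to 1258241, - strand) averaged 1070 CPM over the groups. It had 4750, 9760 and 7420 CPM in attached mycelium 24 h after light and 6.53, 7.78 and 7.55 in basidiospores at 4 h. In the dark at 156 h it had 44.9, 64.5 and 106 CPM in aerial and 6560, 4450 and 3920 CPM in attached mycelium.

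CopciAB_456054 (17 exons, scaffold 13) averaged 804 CPM, with 2420, 4790 and 4840 CPM in hypoxia and 6.86, 3.28 and 3.20 in resting oidia. CopciAB_380322 (17 exons, scaffold 2, overlapping a gene on the other strand) averaged 487 CPM and had the same highest and lowest groups, at 906, 1180 and 985 CPM and at 8.64, 7.19 and 5.17. The hypoxia control had 2079, 2283 and 1867 CPM of the first and 706, 693 and 718 of the second. Neither difference was called (0.94 ± 0.26 and 0.53 ± 0.19 on the log2 scale, adjusted p = 0.126 and 0.252), and hypoxia called 3 intron-rich genes in all.

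CopciAB_421282 (15 exons, scaffold 11) averaged 797 CPM and was highest with cobalt chloride, at 3970, 3260 and 4590 CPM, followed by the cobalt control with a mean of 1900. Its lowest group was primordia at 24 h, at 110, 91.0 and 83.3 CPM. CopciAB_495987 (32 exons, median exon 62.5 bp, scaffold 10, 2020155 to 2024959, + strand) averaged 480 CPM and had the opposite extreme. It was highest in primordia at 24 h, at 1890, 2120 and 2810 CPM, and lowest in resting oidia, at 59.7, 19.9 and 23.9.

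**Figure D4:**
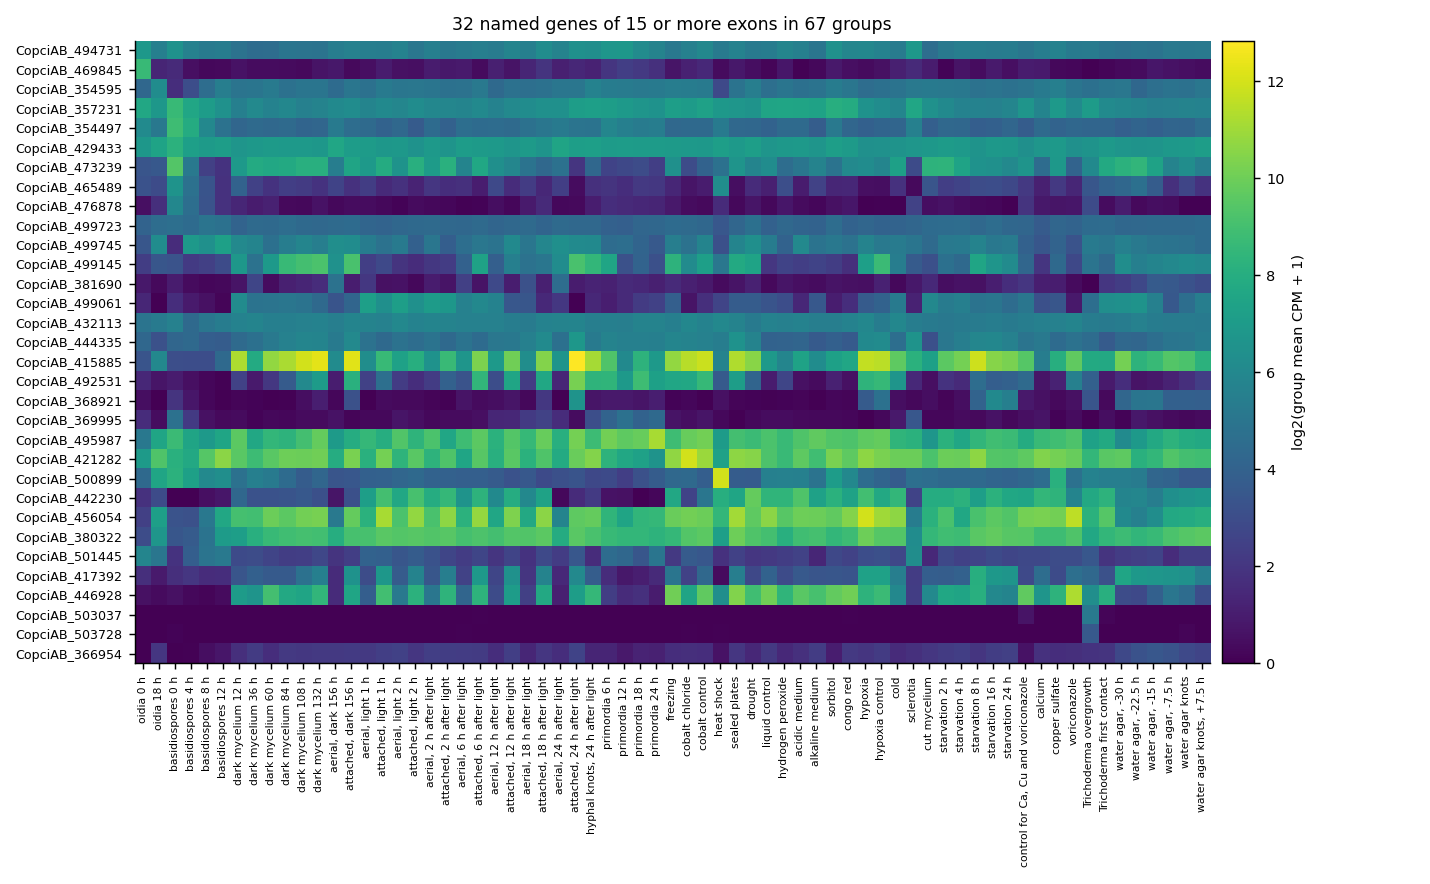
Group mean levels of the 32 intron-rich genes named by rule, as log2(CPM + 1) on the colour scale, in the 67 groups (columns), genes sorted by their highest group. CopciAB_500899 is brightest in heat shock, CopciAB_469845 in resting oidia, and CopciAB_415885 and CopciAB_456054 are bright in several mycelial groups.

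Within the intron-rich genes the length of the exons went with how much expression varied, a relation looked at after the data had been seen. The genes were divided into 3 tiers of nearly equal size by their median exon: 230 genes at 84 bp or less (short), 228 between (middle) and 225 above 132 bp (long). The median SD over group means was 1.02 on the log2 scale in the short, 0.80 in the middle and 0.59 in the long tier. A gene was called in a median of 9, 7 and 5 comparisons. In 20 or more comparisons 17 short-exon, 17 middle and 1 long-exon genes were called.

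The tiers also differed in level, with medians of 2.98, 4.25 and 4.47 log2 CPM, and in breadth, with 43.0%, 78.1% and 87.6% at 1 CPM or more in all groups. From 2 log2 CPM upward the order of SD was the same within strata of level. Between 2 and 4 log2 CPM the median SD was 1.04, 0.86 and 0.68, between 4 and 6 it was 0.95, 0.70 and 0.55, and at 6 or more 1.07, 0.77 and 0.56. In the lower strata the middle tier was highest, with 1.02, 1.04 and 0.85 between 0 and 2 (54, 26 and 12 genes) and 0.91, 1.07 and 0.77 below 0 (34, 10 and 8 genes). Protein length rose along the tiers, with medians of 489, 789.5 and 1256 residues, and its part in the relation was not tested.

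Genes of 2 to 14 exons, divided at the same exon lengths, had median SDs of 0.78, 0.78 and 0.77 and a median of 7 comparisons in each tier. These medians are over all levels, and the tiers were not compared within strata of level. Of the 2 to 14 exon tiers 10.3%, 6.06% and 5.63% reached 1 CPM in no group, against 0%, 0% and 0.444% of the intron-rich tiers. Whether the relation is absent from genes of 2 to 14 exons at like levels was not tested. In genes of 2 to 14 exons the share called was higher at short than at long exons in 31 of the 46 comparisons, and in the intron-rich genes in 44 of 46. These comparisons share libraries and genes, so the counts are a description.

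Among the intron-rich genes the contrast between tiers was wide on water agar for 24 h. There 39.5%, 23.4% and 11.9% of the short, middle and long tier were called. Hyphal knots against attached mycelium gave 29.4%, 14.3% and 9.59%, sclerotia 51.9%, 41.5% and 27.5%, and aerial against attached mycelium 27.1%, 26.8% and 8.68%. It was narrow in the spores, with 52.4%, 52.4% and 48.9% in germinating oidia and 39.9%, 42.7% and 37.9% in basidiospores at 4 h. Heat shock gave 58.1%, 50% and 51.4%, and in overgrowth with Trichoderma the order was 29.6%, 30.4% and 31.2%. In genes of 2 to 14 exons the short and long tiers had 31.9% and 24.8% on water agar for 24 h. In sclerotia these genes had 44.2% and 40.7%. Their order was the reverse in hyphal knots against attached mycelium, with 16.4% and 17.3%. The same held in aerial against attached mycelium, with 16.7% and 17.7%.

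**Figure D5:**
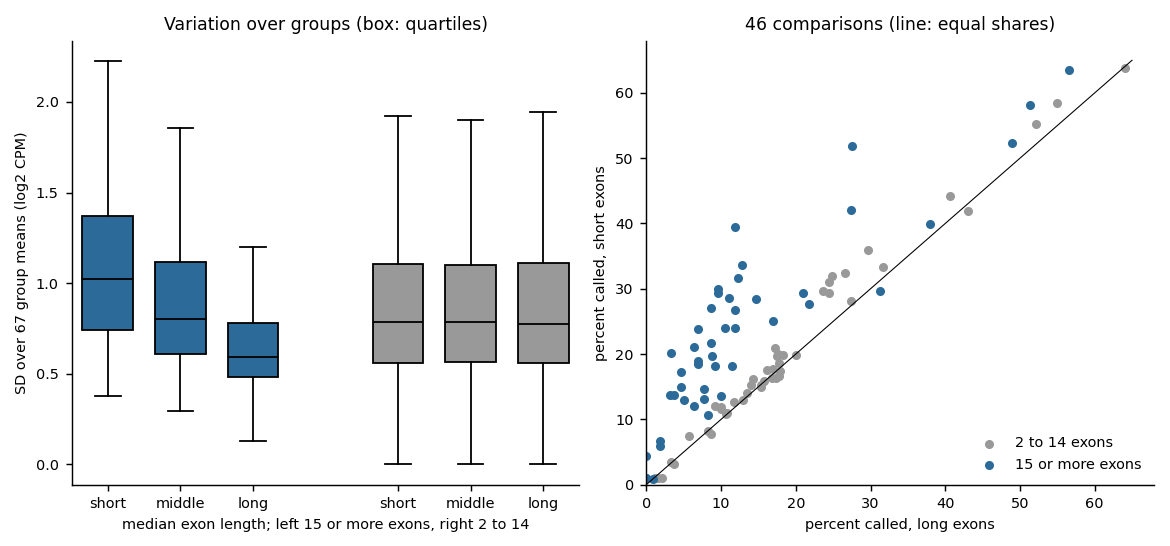
Left, SD over the 67 group means of log2 CPM by tier of median exon length (boxes: quartiles, line: median, whiskers: to the furthest value within 1.5 times the quartile range) for genes of 15 or more exons and of 2 to 14 exons; right, percent of tested genes called at short against long exons in 46 comparisons. Medians fall from 1.02 to 0.59 in the intron-rich genes and lie at 0.78, 0.78 and 0.77 in the others, and on the right most points of the intron-rich genes lie above the line of equal shares.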

How the data were processed

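The deposited files are the authors' table of unnormalized expected counts for all libraries and their CopciAB V2 annotation. Alignment and counting tools, per the submitters' processing notes, include STAR 2.6.1a and featureCounts. For featureCounts neither version nor strand setting nor handling of multiple hits is given in the sources used here. Non-whole values made up 19.87% of deposited counts above 0, and each value was rounded to a whole number for the fits. The annotation was used for exon numbers and for the 1-based start and end of each gene, as deposited. No sequence was printed because no genome was used here. Groups and replicate numbers come from the sample titles, and 0 columns of per-sample values were left out. Floors cover counting error alone, since PCR copies cannot be recognised without molecular identifiers.

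Groups sharing a control or a course were fitted together in 12 fits with edgeR 4.0.16 in R 4.3.3 (TMM scaling, filterByExpr at a minimum count of 10, robust quasi-likelihood test, Benjamini-Hochberg over all tested genes). The edgeR step was tried on simulated counts for heat shock and hypoxia alone, each as a fit of 2 groups. Fits of more groups and the interaction were not simulated. Every adjusted p in the report is edgeR's. A log2 CPM used a prior count of 2, and where all libraries of a group had 0 the fold was bounded at 3 counts. Alternatives were DESeq2 1.42.0, RLE scaling, no filter, the 2 groups alone, a replicate block, leaving out each library, and exon thresholds of 12 and 20.

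The genes, classes and comparisons were chosen with earlier results of these data known. Genes named are the 5 with the most exons, the 5 with the highest mean among those without shared reads, the largest called rise and fall without overlap in each of 11 main comparisons, the 3 with the highest tau at a peak of 10 CPM or more, and the 3 with the lowest SD at a mean of 10 CPM or more. Others are said to be chosen after their values were seen. Same-numbered libraries deviated together in aerial and attached dark mycelium (r = 0.14, 0.31 and 0.32, each library closest to its own number), which pairs them by the data; in the other main comparisons at least 1 pair was at 0.1 or below.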

Additional observations from a re-analysis of the deposited data

Results flagged for a closer look

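The change at 1 h of light differed between compartments for 2 of the named genes, by edgeR's interaction test. CopciAB_415885 had a difference, aerial minus attached, of 3.80 ± 1.10 on the log2 scale (SE, adjusted p = 0.0438): attached mycelium fell from 6560, 4450 and 3920 CPM to 296, 325 and 588, while aerial mycelium had 44.9, 64.5 and 106 in the dark and 46.8, 101 and 87.9 in light. CopciAB_492531 had a difference of 5.67 ± 1.62 (adjusted p = 0.0398): attached mycelium fell from 342, 272 and 243 CPM to 9.99, 1.26 and 63.0, and aerial mycelium had 0.550, 1.49 and 1.01 in the dark and 0.992, 10.7 and 1.95 in light. With a replicate block the differences were 3.93 (adjusted p = 0.0359) and 5.96 (0.0318), and with no filter on low counts 3.79 (0.0555) and 5.66 (0.0508). The latter ended both calls. On leaving out 1 of the 12 libraries CopciAB_415885 stayed called only without replicate 3 of any dark or of lit attached mycelium or replicate 1 of lit aerial mycelium (4 cases), with differences over all 12 of 3.53 to 4.18 and adjusted p from 0.0389 to 0.141. CopciAB_492531 stayed called only without replicate 3 of dark attached, replicate 1 of lit aerial or replicate 3 of lit attached mycelium (3 cases), with differences over all 12 of 4.06 to 7.81 and adjusted p from 0.00502 to 0.319. In both genes the dark levels of the compartments differed before light.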

How the results depend on the processing

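All 121 alternative counts of called intron-rich genes in the 11 main comparisons lay within 1.5 times the count given. All 22 named changes kept their direction and call in 242 alternative results. They had been picked from these same data as the largest called changes without overlap, so this largely follows from the choice. With the replicate block the comparison of aerial and attached mycelium gave 142 in place of 139, all 139 among them. That block fits an effect of each replicate number shared by all groups of the light course. A pairing of dark aerial with dark attached mycelium alone was not tested. In the other main comparisons the block gave 334, 260, 103, 345, 264, 161, 90, 113, 122 and 229, of which 332, 258, 103, 343, 261, 159, 87, 112, 117 and 228 were also called without it. The difference in the 1 h light response between compartments, whose alternatives were chosen after seeing the data, gave 22 called intron-rich genes with the block and with RLE, 25 with DESeq2, 19 without the filter, and 9 to 27 without 1 library. In the other main comparisons the numbers do not pair the samples; in primordia at 24 h against knots every library still correlated best with its own number. The median level of 4.04 was 4.03 at a prior count of 0.5, 3.95 at 12 or more exons, 4.23 without overlapping genes and shared reads, 4.21 at a mean of 1 CPM or more, 4.18 with an annotated 3′ UTR (chosen after seeing the data), and at most 4.05 on leaving out a replicate number. The share in all groups, 69.4%, was 67.5% with library totals, 64.4% at 12 and 75.0% at 20 or more exons, 67.8% without overlaps and shared reads, 73.1% at 1 CPM or more, 71.0% with a 3′ UTR, and 67.5% to 68.2% without a replicate number. With a 3′ UTR genes of 2 to 14 exons also rose, to a median level of 3.77 from 3.44 and a share of 60.4% from 54.9%. The median SD of 0.78 was 0.83 with library totals and at a prior count of 0.5, 0.79 with RLE, 0.75 at 20 or more exons, 0.81 without overlaps and shared reads, 0.77 without Trichoderma overgrowth, 0.79 with a 3′ UTR, and 0.80 to 0.81 without a replicate number; its difference to genes of 2 to 14 exons changed sign between these settings, from -0.05 to 0.02. The median tau of 0.733 was 0.721, 0.743, 0.752, 0.727 and 0.722 with library totals, RLE, 20 or more exons, without overgrowth and at 1 CPM or more, and 0.735 to 0.744 without a replicate number. The cause of these shifts was not tested. The prior count enters neither breadth nor tau, so it gave no value there. At 1 CPM the shallowest library holds few counts per gene, which limits the breadth in Trichoderma overgrowth.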

Other observations

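Neighbouring intron-rich genes were compared after the data had been seen. Of 56 adjacent pairs, 48 had a mean of 1 CPM or more in both genes, and 10 of these overlapped. Their median Pearson correlation over the 67 group means was 0.22, against 0.03 over all 209628 pairs of intron-rich genes and 0.13 over 7656 adjacent pairs of genes of 2 to 14 exons. A correlation above 0.5 was found in 12 adjacent pairs (25%), against 6.06% and 15.2%. The points share libraries, so these are descriptions.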
